A study of Drosophila melanogaster with 26 samples.

Results

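The regions described here are the places on the X chromosome where an antibody against ACF1 or RSF-1 gave a peak in ChIP-seq of Drosophila melanogaster embryos. The peaks of the 13 antibody libraries on the assembled X, without the separate XHet sequence of its heterochromatin, were merged where neighbours shared at least 50 bp. This gave 1838 regions on X, or 16.9% of the 10863 regions on all sequences, while 7918 regions lay on the other chromosome arms (2L, 2R, 3L, 3R and 4). Each region carries the list of libraries in which it was called.

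The chromatin came from un-staged embryos aged 0 to 12 h that had been fixed with 3.7% formaldehyde, in 10 batches. The paper names Oregon-R for the WT embryos and gives no background for the mutants. The RSF-1 antibody, a rabbit serum, was used on rsf1-3602 mutants (1 library, called rsf-1 here) and on WT (2 libraries). The rabbit sera Rb1 and Rb2, made to the C-terminal part of ACF1, were used on acf1-7 mutants (1 and 2 libraries, called acf1 here) and on WT (1 and 3 libraries), and the rat monoclonal 3F1, which recognises the N-terminal part of ACF1, on WT alone (3 libraries). Pre-immune serum was used on WT (2 libraries of Rb2 and 1 labelled Rb), and inputs were sequenced from acf1 (2), rsf-1 (1) and WT (7) chromatin. Each mutant is a single allele, a deletion left by imprecise excision of a P-element. No batch of chromatin holds both genotypes, so that genotype and batch cannot be told apart in any comparison of mutant with WT, and the labels do not give the sex of the embryos.

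ACF1 and RSF-1 are the signature subunits of nucleosome remodelers that share the ATPase ISWI. ACF1 is part of ACF and CHRAC, which slide nucleosomes and space them evenly, and RSF-1 is part of the remodeling and spacing factor RSF. The X is the chromosome of which Drosophila males have a single copy, and it is transcribed at a raised level in males through the MSL dosage compensation complex. ISWI is also known from fly genetics for its effect on the structure of the male X in larval salivary glands. A ChIP in embryos that lack the antigen measures what an antibody recovers without its target, and input and pre-immune lists measure what is called without a specific antibody.

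The lists give positions alone, with neither scores nor reads. A region that is missing from a list was therefore not called there, which does not show that the DNA was not recovered, and the depth behind a call is unknown. Every one of the 7975 X peaks of the 13 libraries was 200 bp wide. The merged regions were 200 to 681 bp wide with a median of 232 bp, and 650 of them had the width of a single peak.

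The antibodies gave many more peaks on X than their background. The RSF-1 antibody gave 992 X peaks in rsf-1 chromatin, against 1045 and 665 in WT. Rb1 gave 295 in acf1 chromatin, against 170 in WT, and Rb2 gave 400 and 941 in acf1 chromatin, against 455, 745 and 667 in WT. With 3F1 there were 479, 726 and 395 X peaks in WT. The lists of pre-immune serum held 25 and 1 (Rb2) and 59 (Rb) X peaks. Inputs of acf1 chromatin held 10 and 9 X peaks, that of rsf-1 chromatin 14, and those of WT chromatin 23, 316, 111, 11, 13, 13 and 11. The antibody lists and the inputs overlap because of the input of batch 2, whose 316 X peaks exceed those of 2 antibody libraries, whereas no pre-immune list reached any antibody list.

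On the scale of log2 of the number plus 1, X peaks averaged 9.28 in antibody libraries and 4.52 in inputs of the same batch. The difference was 4.76 ± 1.85 (SD, n = 10 batches), or 27.2-fold, and it was positive in 10 of 10 batches (exact test by flipping signs over batches, two-sided, p = 0.00195, the lowest value it can give, adjusted p = 0.00651 over 10 tests by Benjamini-Hochberg). It was smallest in batch 2, at 2.29-fold, and largest in batch 5, at 94.2-fold. Against pre-immune serum the antibody libraries were higher by 5.23 on the same scale (means of 9.10 and 3.87, n = 13 and 3, exact permutation test, p = 0.00179, the smallest possible, adjusted p = 0.00651). In batches 6 and 7 alone, which hold both kinds, the difference was 5.89, with p = 0.0833 by an exact permutation test that can give no smaller value. By the labels, the pre-immune list of batch 6 is Rb2 replicate 2, which holds a single peak. With the batch numbers of the study the difference was 4.97. Without Rb2 replicate 2 the difference over all batches was 3.80.

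**Figure D1:**
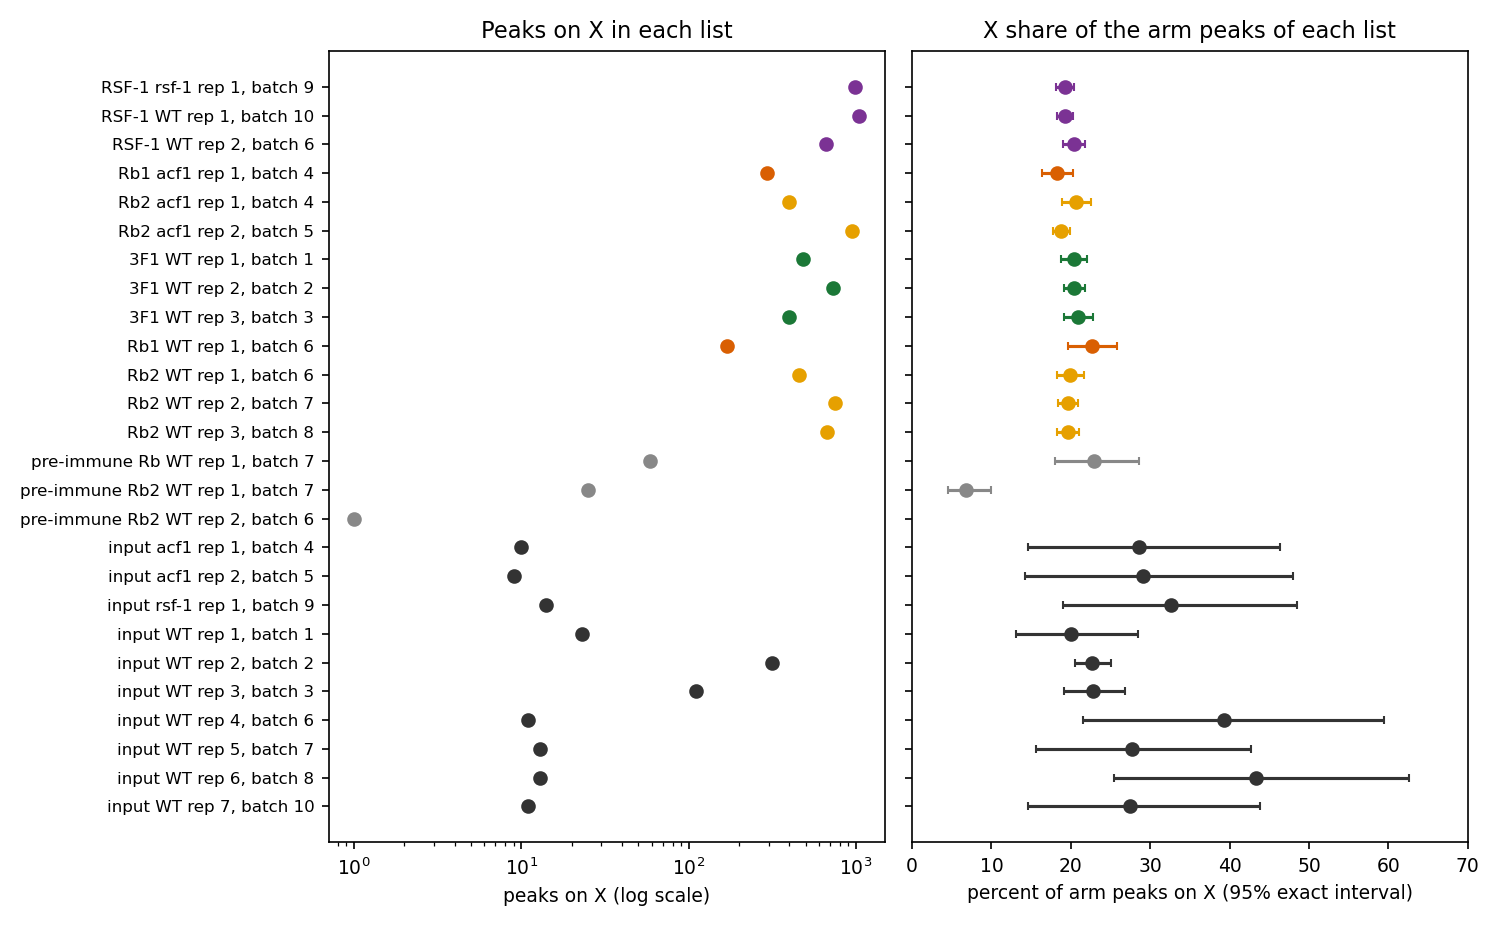
Left, the number of peaks on X (log axis) in each of the 26 lists, and right, the percentage of the peaks on X, 2L, 2R, 3L, 3R and 4 that lie on X, with its exact 95% interval; colours mark the antibody, pre-immune serum or input, and the pre-immune list with a single peak has no share. Antibody lists sit between 18.3% and 22.6% on X, and inputs between 20.0% and 43.3% with wide intervals where they hold few arm peaks.

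X held about the share of the merged regions that its length would give, and a slightly larger share of the peaks of most single lists. Of the summed span of the arms, measured to the last peak, X is 18.6%, and it held 18.8% of the arm regions. Within the single lists, the RSF-1 antibody had 19.3% of its arm peaks on X in rsf-1 chromatin, against 19.3% and 20.4% in WT. Rb1 had 18.3% in acf1 chromatin, against 22.6% in WT, and Rb2 had 20.7% and 18.8% in acf1 chromatin, against 19.9%, 19.6% and 19.6% in WT. For 3F1 the shares were 20.3%, 20.4% and 20.9%. The exact 95% interval of a single antibody share was narrowest for RSF-1 WT replicate 1 (18.2% to 20.3%) and widest for Rb1 on WT (19.7% to 25.8%), the list with the fewest peaks. Per Mb, the antibody lists had 0.976 to 1.28 times as many peaks on X as on the other arms, and 12 of the 13 lists had more on X.

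The X share of arm peaks was lower in antibody libraries than in their inputs, with means of 19.9% and 29.3% and a difference of -9.49 percentage points ± 7.49 (SD, n = 10 batches). It was lower in 9 of 10 batches (same exact test, p = 0.00391, adjusted p = 0.00977). The input shares rest on few peaks, as the 8 inputs other than those of batches 2 and 3 held 9 to 23 X peaks among 28 to 115 arm peaks. The same 4 X regions were called in all 10 inputs, so the batches are not independent in this test. These regions make up a large part of the X peaks of the shortest inputs but little of the longer antibody lists. Part of the lower antibody share therefore rests on these 4 regions, and the shares without them were not calculated. The order of antibody libraries and inputs also depends on what is counted as the whole. Antibody lists had 3.40% to 24.9% of their peaks outside the arms, on heterochromatic and unplaced sequences, against 41.03% to 88.8% for inputs. Over the peaks of every sequence, X held 18.1% in antibody libraries and 6.42% in inputs, higher by 11.7 points in 10 of 10 batches (same exact test, p = 0.00195). Of the pre-immune lists, Rb2 replicate 1 had 6.85% of its 365 arm peaks on X and Rb had 23.0% of 257.

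No difference in the X share was found between genotypes, factors or antibodies. The acf1 libraries averaged 19.2% ± 1.27 (SD, n = 3) and the WT libraries of the same sera 20.4% ± 1.45 (SD, n = 4), with a difference of -1.21 points (exact permutation test, p = 0.314, adjusted p = 0.524). In WT chromatin, RSF-1 averaged 19.8% ± 0.798 (n = 2) and ACF1 20.5% ± 1.04 (n = 7), a difference of -0.68 points (exact permutation test, p = 0.444, adjusted p = 0.635), which was -0.11 without RSF-1 WT replicate 1, -1.24 without RSF-1 WT replicate 2 and -0.32 without Rb1 WT. For 3F1 the mean was 20.5% ± 0.305 (n = 3), against 20.4% for Rb1 and Rb2 together (difference 0.10 points, exact permutation test, p = 1, adjusted p = 1). This difference rests on the Rb1 WT library: without it 3F1 was higher by 0.82 points, with every 3F1 share above every Rb2 WT share (exact permutation test, p = 0.1, the smallest possible). The number of X peaks on the log2 scale was 8.91 in acf1 and 8.79 in WT libraries of Rb1 and Rb2 (difference 0.12, exact permutation test, p = 0.857, adjusted p = 0.952), and its sign turned, to -0.34, when the Rb1 WT library was left out. With all libraries in, these groups overlap in every case, and with 3 against 4 libraries no p under 0.0286 is possible.

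Regions were spread along the whole X. There were 82.0 regions per Mb on X, against 80.9 on the other arms. The 22 full windows of 1 Mb on X held 60 to 115 regions with a median of 81, and the 96 full windows of the other arms 43 to 233 with a median of 76. The fullest X windows were those from 11 to 12 Mb and from 15 to 16 Mb (115 regions each) and from 16 to 17 Mb (106 regions). The emptiest were those from 21 to 22 Mb (60 regions), next to the centromeric end, from 20 to 21 Mb (62 regions) and from 18 to 19 Mb (63 regions). Of the 13 libraries, 5 had their fullest X window at 15 to 16 Mb and 5 at 16 to 17 Mb. Centres of neighbouring regions lay 6394.5 bp apart in the median, and the longest stretch without a centre was 227075 bp.

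**Figure D2:**
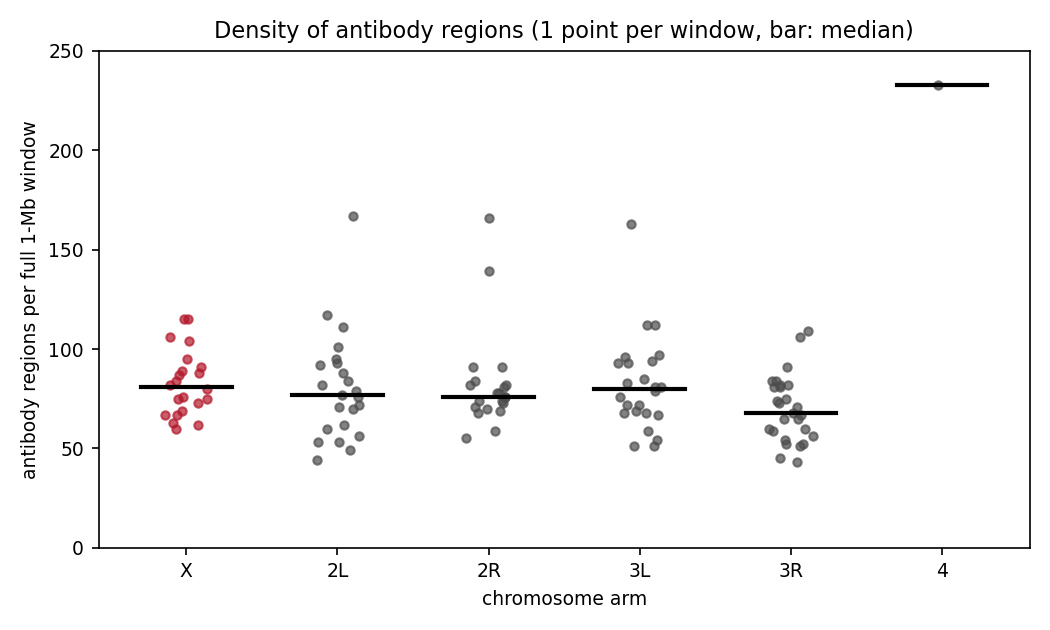
Antibody regions in each full 1-Mb window, by chromosome arm (1 point per window; horizontal bars are medians; points are spread sideways for legibility). The 22 windows of X lie between 60 and 115, without the windows of over 150 regions seen on 2L, 2R and 3L and in the single window of 4.

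Windows with like numbers of regions differed in how often these recurred. The window from 12 to 13 Mb, picked out after its values were seen, held 87 regions, of which 50 (57.5%) were called in 1 library and 7 in 7 or more. The window from 16 to 17 Mb held 106 regions, of which 40 were called in 1 library, 35 in 7 or more and 7 in all 13. With X cut into 3 equal parts, the antibody lists had 29.2% to 35.1% of their X peaks in the first part, 24.7% to 36.6% in the middle and 33.3% to 41.2% in the last. The 15 regions beyond 22 Mb included 11 called in a single library.

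Recurrence was broad, with many regions called once and a small set called everywhere. Of the X regions, 644 (35.04%) were called in 1 antibody library, against 34.7% of regions over all sequences. On X 497 (27.0%) were called in 7 or more libraries, against 24.2% over all sequences and 24.8% on the other arms. Per Mb, X had 22.2 of these, against 17.7 on 2L, 22.1 on 2R, 18.6 on 3L, 21.5 on 3R and 26.4 on 4, so X did not stand apart from each single arm. All 13 libraries called 66 X regions (3.59%, exact 95% interval 2.79% to 4.55%), against 2.4% of regions over all sequences and 158 regions (2.00%) on the other arms. By single arm the latter share ran from 0.962% on 4 to 2.66% on 3R. X therefore held 29.5% of the arm regions called in all 13 libraries (exact 95% interval 23.6% to 35.9%), compared with 18.8% of all arm regions. It held 28.2% of those called in 12 libraries and 22.8% of those called in 11, while for regions called in 1 to 10 libraries its share ran between 15.4% and 20.5%. These intervals treat regions as independent and cover counting error only.

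**Figure D3:**
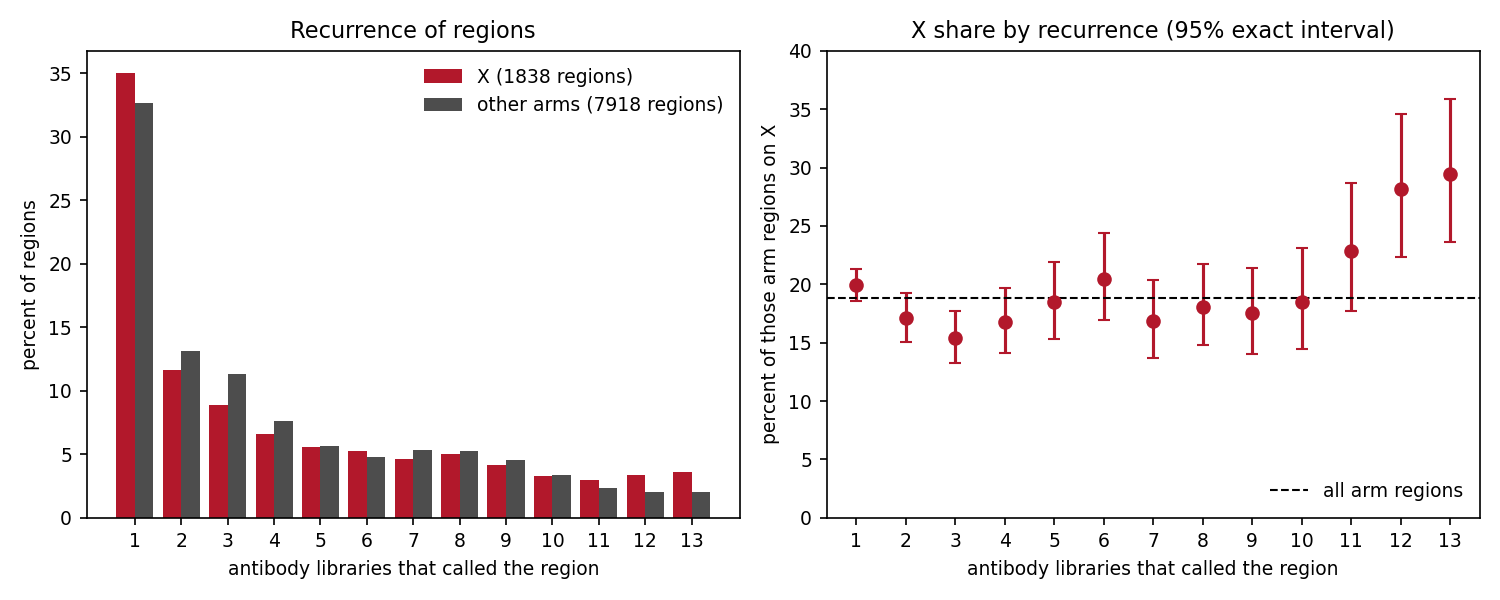
Left, the percentage of X regions and of regions on the other arms called in 1 to 13 antibody libraries. Right, the percentage of the arm regions of each recurrence class that lie on X, with exact 95% intervals and a dashed line at the 18.8% of all arm regions; the classes of 12 and 13 libraries lie at 28.2% and 29.5%.

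The X share of the regions called everywhere changed little when 1 library was left out. With each library left out in turn, X held 27.2% to 32.5% of the arm regions called in all of the 12 others. These sets held 66 to 97 X regions and are largely the same regions, so the shares are not independent of each other. Without Rb1 on WT, the list with the fewest peaks and the largest X share, there were 93 such regions on X and 193 on the other arms (32.5%). Without both Rb1 libraries 158 X regions were called in all of the other 11 libraries, or 29.2% of the arm regions. When regions with a call in an input or pre-immune list were left out, 62 X regions remained among those of all 13 libraries, against 156 on the other arms (28.4%).

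By position, the first X regions called in all 13 libraries and in no control list were chrX:139801-140098, chrX:659066-659382, chrX:927145-927391, chrX:1130664-1130908, chrX:1406864-1407106, chrX:1847055-1847294, chrX:1988105-1988343, chrX:2164721-2165005, chrX:2337927-2338143 and chrX:3028649-3028919 (Release 5 of the genome). These 10 regions were 217 to 317 bp wide and had 10 ACF1 and 3 RSF-1 calls each, of which 4 were in mutant chromatin. Within the 66 regions of all 13 libraries the peak centres spread over 69.5 bp in the median (17 to 481 bp), less than the width of 1 peak. The median distance of a library's peak from the median centre of the region was lowest for Rb2 WT replicate 1 (5 bp) and highest for Rb1 on acf1 chromatin (20.5 bp).

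Peaks on X were found again in other batches of chromatin about as often as peaks elsewhere. Averaged over batches, 90.9% of the X peaks of a library were shared with a library of another batch, against 90.6% of its peaks on the other arms (difference 0.28 points ± 2.85, SD, n = 10 batches, higher on X in 5 of 10, same exact test, p = 0.8125, adjusted p = 0.952). The lowest value on X was that of Rb1 on acf1 chromatin, with 60.3% of its X peaks found in another batch, and the highest was 100% for Rb1 and Rb2 on WT batch 6. Of the 644 X regions called once, Rb2 WT replicate 3 gave 117, Rb1 on acf1 108, 3F1 replicate 2 102 and Rb2 acf1 replicate 2 92, whereas Rb1 WT and Rb2 WT replicate 1 gave 0.

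ACF1 and RSF-1 antibodies met at about the same share of regions on X as elsewhere. Both factors' antibodies called 943 X regions (51.3%, against 49.5% over all sequences and 52.0% on the other arms). ACF1 antibodies alone called 668 (36.3%, against 41.1% over all sequences and 38.9% on the other arms). The RSF-1 antibody alone called 227 (12.4%, against 9.43% over all sequences and 9.09% on the other arms). Of the arm regions called with the RSF-1 antibody alone, 24.0% lay on X (exact 95% interval 21.3% to 26.8%). All 3 RSF-1 libraries called 614 X regions (33.4%, against 28.4% over all sequences), of which 28 had no ACF1 call (1.52% of X regions, against 0.782% over all sequences and 0.682% on the other arms). The first of these by position were chrX:1029170-1029455, chrX:2017451-2017654, chrX:2050011-2050216, chrX:2228161-2228409 and chrX:4317896-4318123. In the other direction, the largest number of ACF1 calls without an RSF-1 call on X was 7, at chrX:18411518-18411758, which was called in 3 3F1 and 3 Rb2 libraries of WT and in 1 Rb2 library of acf1 chromatin.

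By antibody, all 4 reagents (3F1, Rb1, Rb2 and the RSF-1 serum) called 210 X regions (11.4%, against 9.59% over all sequences). The most frequent pattern on X was 3F1, Rb2 and RSF-1 without Rb1, with 371 regions (20.2%), against 21.1% on the other arms. The Rb2 serum alone called 320 X regions (17.4%, against 18% over all sequences) and 3F1 alone 171 (9.30%, against 8.73% over all sequences).

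**Figure D4:**
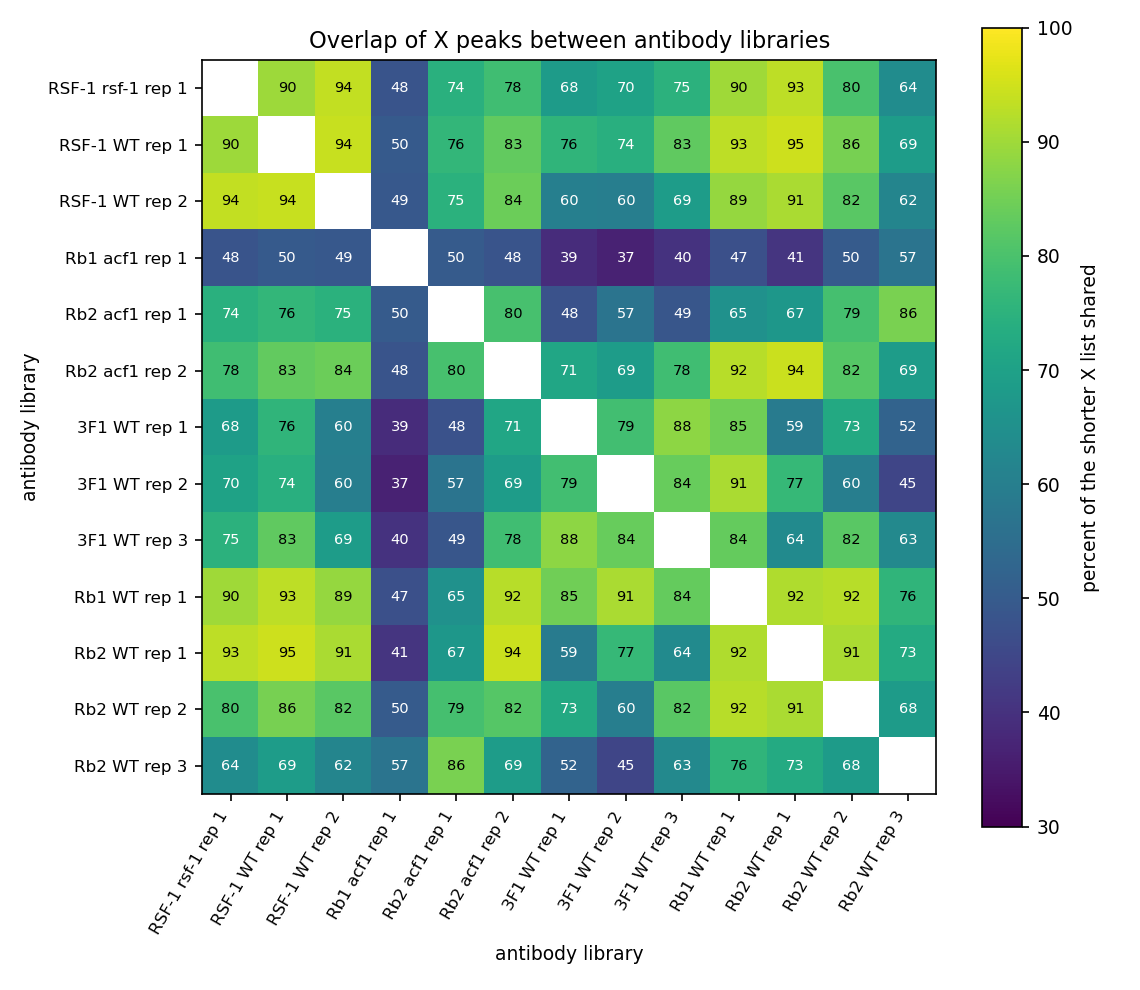
Overlap of X peaks between each pair of antibody libraries, as the percentage of the shorter X list that shares at least 50 bp with the longer one (the diagonal is left blank; the colour scale starts at 30%). The 3 RSF-1 libraries share 89.6% to 94.0%, whereas every pair with Rb1 on acf1 chromatin stays at or under 56.9%.

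Pairs of libraries shared 36.6% to 94.7% of the shorter X list, with a median of 74.6% over 78 pairs. The 3 RSF-1 libraries shared 89.6%, 93.7% and 94.0%, in 2 of these pairs across genotypes. Pairs of an ACF1 with an RSF-1 library shared 48.1% to 94.7% (median 75.4%), and the pairs of 3F1 libraries 78.7% to 88.1%. On the other arms the median over the 78 pairs was 69.99%, and 65 of the 78 pairs were higher on X. The pairs share libraries, so no test was made. Taking the 12 pairs of each library, the medians on X and on the other arms lay farthest apart for Rb1 on acf1 chromatin (48.1% and 30.9%) and next for Rb2 acf1 replicate 1 of the same batch (70.75% and 56.3%). They were lower on X for 3F1 replicate 2 (69.4% and 73.0%), the rsf-1 library (76.7% and 77.8%) and Rb2 acf1 replicate 2 (79.0% and 79.2%).

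Most X regions were called in mutant chromatin too, at about the share seen elsewhere. Both mutant and WT chromatin called 1066 X regions (58.0%, against 57.4% over all sequences and 60.4% on the other arms). Mutant chromatin alone called 317 (17.2%, against 17.3% over all sequences and 16.9% on the other arms). WT chromatin alone called 455 (24.8%, against 25.4% over all sequences and 22.7% on the other arms). With 4 mutant and 9 WT libraries, the last 2 counts are not on equal terms.

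For ACF1 the comparison rests on the sera Rb1 and Rb2. At least 2 of their 3 acf1 libraries called 361 X regions (19.6%, against 16.6% over all sequences), and at least 2 of their 4 WT libraries called 573 (31.2%, against 27.9% over all sequences). The 328 regions in both sets are 90.9% of the acf1 set and 57.2% of the WT set, against 79.0% and 44.3% on the other arms. The acf1 libraries differed widely among themselves. Of the 573 regions of the WT set, Rb2 acf1 replicate 2 called 90.9%, Rb2 acf1 replicate 1 called 56.2% and Rb1 on acf1 26.4%. On the other arms these shares were 91.5%, 42.9% and 19.3%, so that both libraries of batch 4 called a larger share of the WT set on X and the library of batch 5 a like one.

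**Figure D5:**
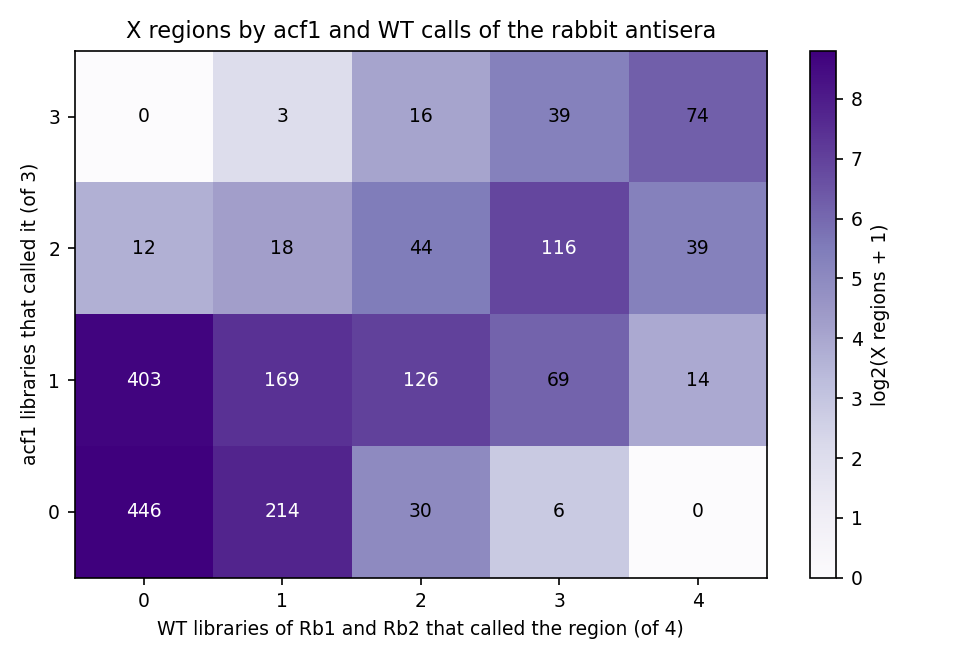
Number of X regions by how many of the 4 WT libraries (across) and of the 3 acf1 libraries (up) of Rb1 and Rb2 called them; colour is log2 of the number plus 1. No region was called in all 4 WT and no acf1 library, and 74 were called in all 7.

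No X region was called in all 3 acf1 libraries of these sera and in no WT library (0.0552% over all sequences), and none in all 4 WT libraries and no acf1 library (0 of 1838, which allows a share of up to 0.200% by the exact 95% interval, against 0.0368% over all sequences). All 7 libraries called 74 X regions (4.03%, against 2.91% over all sequences and 2.37% on the other arms). Without Rb2 acf1 replicate 2, 14 X regions were called in all 4 WT libraries and in neither of the acf1 libraries that were left, so that this count rests on that library.

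The nearest cases on X were 6 regions called in 3 WT and no acf1 libraries of these sera (0.326%, against 0.506% over all sequences and 0.278% on the other arms). The first was chrX:3889222-3889451, with 3 Rb2 calls and 1 RSF-1 call in WT. The second, chrX:8188907-8189145, was called in 3 3F1, 1 Rb1, 2 Rb2 and 1 RSF-1 library, all of them WT, with no call in mutant chromatin, input or pre-immune lists. At chrX:11534567-11534816 and chrX:17714337-17714599 all 3 RSF-1 libraries called the region too, that of rsf-1 chromatin included. The fourth by position, chrX:11693995-11694240, had 3 calls in all, from 1 Rb1 and 2 Rb2 libraries. In the reverse direction 10 X regions were called in 2 acf1 and no WT ACF1 library (0.544%, against 1.14% over all sequences and 1.11% on the other arms). Of the first 5 of these, chrX:4830813-4831030, chrX:6972754-6973077, chrX:11092672-11092928 and chrX:15762968-15763253 were called in both libraries of batch 4, and chrX:11092672-11092928 also in a pre-immune Rb2 list. The last, chrX:16564825-16565077, was called in both Rb2 acf1 libraries.

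Sharing of X peaks across genotypes was not told apart from sharing within a genotype. Pairs of an acf1 and a WT library of Rb1 or Rb2 shared 69.1% of the shorter X list on average, against 74.5% for pairs of 1 genotype (difference -5.35 points, exact permutation test over 35 splits, p = 0.2, adjusted p = 0.4). The sign turned, to 1.05, without Rb1 WT, and to 0.78 when shared regions were counted against those of either library. As a percentage of the shorter list, Rb2 WT replicates 3 and 1 were each highest with an acf1 library among these sera. The shorter list changes from pair to pair, and a longer partner can hold more of it, so these values do not rank likeness. For Rb2 WT replicate 3 (batch 8), the value with Rb2 acf1 replicate 1 (batch 4) was 86.0%, counted on the 400 X peaks of the latter. With Rb2 WT replicate 1 it was 72.7% of 455, with Rb2 WT replicate 2 68.4% of its own 667, and with Rb1 WT 75.9% of 170. For Rb2 WT replicate 1 (batch 6), the value with Rb2 acf1 replicate 2 (batch 5), a list of 941 X peaks, was 94.3%. It was 91.2% and 72.7% with the other Rb2 WT libraries, of 745 and 667 X peaks, and 91.8% with Rb1 WT of its own batch, counted on 170. There were 25 X regions called in batches 4 and 8 and in no other batch (1.36%), against 300 (3.79%) on the other arms, and none of the 25 was called in an input.

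For RSF-1 the mutant library called nearly all of the X regions that both WT libraries had. Of its 992 X regions, 902 (90.9%) were called in at least 1 WT library and 90 (4.90%, against 3.8% over all sequences) in neither. Both WT libraries called 628 X regions (34.2%, against 29.4% over all sequences), and 614 of these (97.8%) were called in rsf-1 chromatin, against 97.1% on the other arms. Only 14 (0.762%, against 0.994% over all sequences) were missing there. With 1 library against 2 no test was made.

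Control lists called few of the X regions. At least 1 of the 10 inputs called 34 X regions (1.85%, against 5.9% over all sequences, 2.18% on the other arms), and at least 1 pre-immune list called 15 (0.816%, against 3.84% over all sequences, 2.60% on the other arms). Merged among themselves, the inputs gave 358 regions on X, of which 322 were called in batches 2 or 3 alone. Of these 322, 14 had an antibody call, against 20 of the other 36. Without the inputs of batches 2 and 3, the count of X regions called in an input was 20. In the pre-immune lists, 11 of the 25 X peaks of Rb2 replicate 1 and 6 of the 59 of Rb had an antibody call, and the single X peak of Rb2 replicate 2 had none.

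Within a library, X peaks were found in the input of the same batch more often than peaks on the other arms. The shares were 1.37% on X and 0.491% on the other arms, a difference of 0.87 points ± 0.56 (SD, n = 10 batches) with the same sign in 10 of 10 batches (same exact test, p = 0.00195, the lowest it can give, adjusted p = 0.00651). On X these were 5 to 13 peaks per library, so that the difference rests on few positions. Among them, 4 X regions were called in all 10 inputs and all 13 antibody libraries, against 0 on the other arms. The same positions thus recur in every batch, and the p-value does not reflect 10 independent repeats. The difference without these regions was not calculated, and with 5 to 13 peaks per library its sign without them is not known. The largest share was that of Rb1 on WT, with 9 of 170 X peaks (5.29%).

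All 10 inputs called 4 X regions (0.218%, against 0.534% over all sequences), against 0 on the other arms, and all 13 antibody libraries called each of the 4. They are chrX:13847-14142, near the start of the sequence, and chrX:21802667-21803347, chrX:21803905-21804135 and chrX:21834807-21835077 near its centromeric end. The widest X region is among them, chrX:21802667-21803347, with 681 bp and 19 antibody peaks. The last, chrX:21834807-21835077, was also called in 2 of the 3 pre-immune lists, as were chrX:8295-8512 (8 antibody and 3 input calls) and chrX:11894-12174 (12 antibody and 8 input calls). From position 21 Mb on, antibody libraries had 2.92% to 7.65% of their X peaks, against 11.1% to 64.3% for inputs. Of the 644 X regions of 1 antibody library, 2 (0.311%) had an input call, as did 4 of the 66 of all 13 (6.06%), which are the 4 regions called in all 10 inputs. For X regions of 2 to 12 libraries the share lay between 0.935% and 4.13% and did not climb steadily, with 4.13% at 4 libraries, 1.96% at 5 and 1.32% at 9.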

How the data were processed

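The authors mapped reads to Release 5 (dm3) with Bowtie 1.1.1, keeping unique hits, and called peaks per library with HOMER at default settings. The deposited files hold 26 peak lists with positions alone (50336 peaks, no score, all but 26 of them 200 bp wide), so that read depth per list is unknown. The study lists an input control for each ChIP profile, but the sources used here do not say how the input entered the calls. The number of antibody peaks shared with an input may depend on this, which was not tested.

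Here peaks were merged at an overlap of at least 50 bp. Shares need at least 20 arm peaks, and the length of an arm is the last peak end. Antibody libraries were averaged per chromatin batch and compared with the input in exact sign-flip tests over batches (pairs come from the batch numbers in the labels), and other groups in exact permutation tests over libraries, 10 tests in all at a threshold of 0.05. Libraries of 1 batch count as independent in the latter tests. Nothing says whether batches are separate collections of embryos. The labels give pre-immune Rb2 replicates 1 and 2 as batches 7 and 6, and the study the other way round. Confidence intervals are exact (Clopper-Pearson, 95%).

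Regions were named by position within classes: most antibody libraries without a control call (10), most Rb1 and Rb2 WT libraries without acf1, most acf1 without WT ACF1, all RSF-1 without ACF1, most ACF1 without RSF-1, most inputs and most pre-immune lists (5 each), and the 3 fullest and emptiest windows. The members and lists were chosen with earlier results of these data known. Merging was tested on simulated data (24060 peaks, 710 of 710 X regions recovered). The simulated regions lay far apart with small offsets between lists, so the merging of closely spaced regions was not tested. Alternatives were overlaps of 1 and 150 bp, windows of 500 kb, other denominators and scales, unpaired tests and each library left out. Genes and sequences were not used here, since the gene table provided is for Release 6. Calculations ran in scipy 1.17.1 with numpy 2.4.6 (Python 3.11.15), and figures in matplotlib 3.10.9.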

Additional observations from a re-analysis of the deposited data

Results flagged for a closer look

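In 16 checks of groups of 4 to 10 lists, a list was taken to stand apart when its gap to the nearest other list was a large part of the range of the group; chance does this in about 1 in 20 groups. The input of WT replicate 2 (batch 2) stood apart with 316 X peaks, both among the 7 WT inputs, where the others had 11 to 111, and among all 10 inputs, where the others had 9 to 111. It also had 5 peaks on XHet, against 0 or 1 in the other 9 inputs. Rb1 WT replicate 1 had 22.6% of its arm peaks on X, above the 19.6% to 20.9% of the other 6 ACF1 libraries of WT and above the other 3 of Rb1 and Rb2. It also had 5.29% of its X peaks in the input of its own batch, against 1.20% to 1.98% in those 6. This library holds 170 X peaks, the fewest of the antibody lists.

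XHet, the heterochromatic sequence left out of the X regions, carried a few peaks in every antibody library. They numbered 1 to 5 per library, on average 3.15, against 0.6 per input and 0 to 2 per pre-immune list. The 8 inputs other than those of batches 2 and 3 averaged 0.125.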

How the results depend on the processing

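Of 291 recalculations under other settings, 271 kept direction and side of the threshold or stayed within 1.5 times of a count. With the peaks of every sequence as the whole, the X share of antibody libraries against inputs turned to 11.7 points and that of RSF-1 against ACF1 to 0.54. Compared without the replicate block of the chromatin batch, the X share differed by -9.35 points (exact permutation test, p = 1.49e-05) and the number of X peaks by 4.58 (p = 2.62e-06, exact permutation test), so that the pairing changed no call. Without batches 2 and 3 these were -11.3 points and 5.58. Against pre-immune serum within batches 6 and 7, the number of X peaks differed by 5.89 with the batches of the labels and by 4.97 with those of the study, where no p under 0.0833 is possible. Sharing across against within genotypes turned to 0.78 when counted against regions of either library. X regions called in an input numbered 53 at an overlap of 1 bp and 20 without the inputs of batches 2 and 3. At an overlap of 150 bp, the rsf-1 library called 94.4% of the X regions of both RSF-1 WT libraries.

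With each library left out, the X share of antibody against input ranged between -10.6 and -7.90 points, the number of X peaks against input between 4.56 and 5.16 and against pre-immune serum between 3.80 and 6.25, and the share in the input of the same batch, X against other arms, between 0.73 and 0.94 points, all with p under the threshold. Leaving out a library does not take away the 4 X regions called in all 10 inputs, which enter both of these shares. Without calls either way were acf1 against WT for the share (-1.92 to -0.49 points) and for the number of X peaks (-0.37 to 0.47, negative without Rb2 acf1 replicate 2, at -0.37, and without Rb1 WT, at -0.34), RSF-1 against ACF1 in WT for the share (-1.24 to -0.11 points, the ends without RSF-1 WT replicates 2 and 1), peaks found in another batch on X against the other arms (0.09 to 1.19 points, the ends without Rb2 acf1 replicate 1 and Rb2 WT replicate 3), 3F1 against Rb1 and Rb2 (-0.18 to 0.82 points, the highest without Rb1 WT, negative at -0.07 without 3F1 replicate 3 or Rb2 WT replicate 1, -0.17 without Rb2 WT replicate 2 and -0.18 without replicate 3) and sharing across against within genotypes (-15.9 to 1.05 points, positive without Rb1 WT, at 1.05, and without Rb2 WT replicate 1, at 0.64). X regions called in every rabbit WT and no acf1 library numbered 0 to 14 (2 without Rb1 WT, 1 without Rb2 WT replicate 1, 3 without replicate 3 and 14 without Rb2 acf1 replicate 2). The cause was not tested in any of these. Because lists carry no read numbers, weak sites and missing calls cannot be told apart.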

Other observations

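The entries of a list follow an order that the sources used here do not explain, and it is given here as a description. X regions called in more libraries stood nearer to the top of the lists. Over the 13 libraries, the median place of the X regions called in all 13, as a percentage of the list counted from the top, lay between 11.1% and 53.0% (median 19.7%). For X regions called in 2 to 4 libraries it lay between 64.5% and 87.0% (median 75.3%). In 11 of the 13 antibody libraries, X entries stood lower than those of the other arms. The exceptions were both libraries of batch 4, Rb1 on acf1 (median place 38.8% on X, 49.1% on the other arms) and Rb2 acf1 replicate 1 (43.9% and 46.2%). Over the 13 libraries the median places were 38.8% to 65.5% on X (mean 56.7%), against 38.2% to 49.1% on the other arms (mean 44.8%).

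One X region, chrX:21834807-21835077, picked out after its values were seen, held the first entry in 18 of the 26 lists, which are all 10 inputs, 7 antibody lists and 1 pre-immune list. In the other antibody lists its place was 2, 3, 24, 39, 40 and 673. It is the region named above with calls in all 13 antibody libraries, all 10 inputs and 2 pre-immune lists.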
